A study of Mus musculus with 4 samples.

Results

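H3K27ac regions annotated as lying between genes and outside repeats were examined in mouse embryonic stem (ES) cells of 2 strains. They were the regions whose detailed annotation in the deposited lists was exactly intergenic, and they are called members here. There were 1229 members among 5525 regions enriched in B6 and 1139 among 6126 regions enriched in NOD, or 22.2% and 18.6% of the lists and 2368 of 11651 regions in all. By distance from the region centre to the nearest transcription start site (TSS), they fell into 3 classes, under 10 kb, 10 to 100 kb and over 100 kb. The B6 list held 268, 715 and 246 members in these classes, and the NOD list held 256, 608 and 275.

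The study compared ES cells of diabetes-prone non-obese diabetic (NOD) mice with those of C57BL/6 (B6) mice, a strain that does not develop autoimmune diabetes. Both were derived from blastocysts and grown in 2i medium, which inhibits the kinases MEK and GSK3. No transgene or treatment beyond this was given, and neither the ES cell line nor the number of lines behind each library was given in the labels. ChIP-Seq for H3K27ac and for H3K4me3, the trimethylation of histone H3 at lysine 4 that marks promoters, was represented by 1 library per strain and mark, so there were 4 libraries and no replicates. No test was therefore possible. Shares are given with Wilson 95% intervals, which cover counting error only and neither biological nor library variation. Each list holds regions called in 1 strain against the other, so a region marked alike in both strains would not be listed. The score of a region behaved like a difference in signal between the strains, positive where the strain of the list was higher, and its unit is not given in the files. For example, a region near G530011O06Rik at the end of the X chromosome scored 847.0 in the NOD list and -819 in the B6 list.

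H3K27ac is the acetylation of histone H3 at lysine 27, deposited mainly by the coactivators p300 and CBP at enhancers and active promoters. Enhancers are bound by transcription factors and can act on promoters over long distances, often skipping the nearest gene. In ES cells many enhancers are bound by the pluripotency factors Oct4, Sox2 and Nanog, and stretches of closely spaced, strongly marked enhancers are called super enhancers. The gene named with a region below is the one with the nearest TSS in the deposited annotation, and it is not a known target of that region.

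The label of the members was compared with a reference annotation of the same genome build. The base at the centre of the region was soft-masked, that is, within a repeat, in 132 B6 members (10.7%, 9.13 to 12.6) and in 138 NOD members (12.1%, 10.3 to 14.1). Among the other H3K27ac regions this share was 26.7% in B6 and 33.2% in NOD. Repeats were thus rarer at the centre of members but not missing, and 41 B6 and 64 NOD members were soft-masked over at least 50% of their bases. The centre lay within a gene of the RefSeq annotation for 297 B6 members (24.2%, 21.9 to 26.6) and 265 NOD members (23.3%), although the deposited annotation called all of them intergenic. It lay within a GENCODE long noncoding RNA gene for 133 B6 members (10.8%) and 123 NOD members (10.8%).

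The sequences of the members with the highest score are shown first, by list and distance class except for NOD members under 10 kb, as they are the places with the largest difference between the strains. Each is the central 300 bases of the region on the plus strand of GRCm38.p6, the build that corresponds to mm10, and capitals mark CpG dinucleotides. In B6 they lay near Gm15698 (chr11:88967986-88968285, under 10 kb from the TSS), Mfap3 (chr11:57551994-57552293, 10 to 100 kb) and 1700057H15Rik (chr4:124350045-124350344, over 100 kb). In NOD they lay near Smarca5-ps (chr4:145439276-145439575, 10 to 100 kb) and Zfp970 (chr2:177230316-177230615, over 100 kb). A further one, near P4ha2 (chr11:54140501-54140800), was chosen after its values were seen, as the NOD member with the highest score among those no wider than 300 bp.
Gm15698, B6: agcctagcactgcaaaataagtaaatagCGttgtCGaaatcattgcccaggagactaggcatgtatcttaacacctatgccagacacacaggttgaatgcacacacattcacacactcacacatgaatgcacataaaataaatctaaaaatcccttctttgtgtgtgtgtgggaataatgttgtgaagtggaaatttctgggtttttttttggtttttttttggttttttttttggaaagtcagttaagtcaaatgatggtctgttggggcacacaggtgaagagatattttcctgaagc
Mfap3, B6: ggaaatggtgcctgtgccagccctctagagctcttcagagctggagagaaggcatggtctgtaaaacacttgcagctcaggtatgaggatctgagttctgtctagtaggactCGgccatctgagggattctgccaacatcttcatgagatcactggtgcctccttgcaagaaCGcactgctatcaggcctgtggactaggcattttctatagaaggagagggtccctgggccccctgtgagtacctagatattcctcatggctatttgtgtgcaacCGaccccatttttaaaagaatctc
1700057H15Rik, B6: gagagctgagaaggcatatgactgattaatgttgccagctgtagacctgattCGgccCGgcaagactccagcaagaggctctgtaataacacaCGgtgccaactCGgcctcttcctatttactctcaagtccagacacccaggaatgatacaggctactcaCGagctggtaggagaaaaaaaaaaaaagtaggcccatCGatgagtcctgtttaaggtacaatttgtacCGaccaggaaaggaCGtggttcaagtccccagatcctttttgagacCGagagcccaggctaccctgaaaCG
Smarca5-ps, NOD: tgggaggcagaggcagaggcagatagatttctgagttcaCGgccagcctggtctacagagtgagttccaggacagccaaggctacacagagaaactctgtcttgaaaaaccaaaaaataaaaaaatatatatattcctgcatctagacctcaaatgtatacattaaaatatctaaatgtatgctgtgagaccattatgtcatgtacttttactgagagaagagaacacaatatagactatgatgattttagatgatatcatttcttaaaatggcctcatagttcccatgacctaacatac
Zfp970, NOD: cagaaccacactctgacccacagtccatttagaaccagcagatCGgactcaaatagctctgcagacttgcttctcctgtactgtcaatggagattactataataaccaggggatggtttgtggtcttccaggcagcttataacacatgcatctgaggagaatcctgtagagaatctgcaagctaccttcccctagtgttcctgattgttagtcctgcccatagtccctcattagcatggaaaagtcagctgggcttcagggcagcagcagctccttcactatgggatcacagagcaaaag
P4ha2, NOD: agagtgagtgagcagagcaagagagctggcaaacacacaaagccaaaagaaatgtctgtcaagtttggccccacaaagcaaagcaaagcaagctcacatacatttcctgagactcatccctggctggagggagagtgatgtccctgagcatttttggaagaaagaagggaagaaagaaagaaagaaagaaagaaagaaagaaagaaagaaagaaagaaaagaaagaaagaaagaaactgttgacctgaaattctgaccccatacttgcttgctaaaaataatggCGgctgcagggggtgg

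The Gm15698 window held 2 CpG dinucleotides, was 67.3% soft-masked and had a GC content of 38.0%. The Smarca5-ps, Zfp970 and P4ha2 windows held 1 CpG each, and the 1700057H15Rik window held 10. The P4ha2 window ran through a stretch of GAAA repeats and was 44.0% soft-masked. To see how unique the members were, 9 evenly spaced words of 32 bases were read from each region and counted in the whole genome on both strands. In the Zfp970 region 7 of 9 words were found elsewhere too, in the Smarca5-ps region 4 of 9, in the Gm15698, Mfap3, 1700057H15Rik and P4ha2 regions 2 of 9, and in the Bcap29 region none. The most frequent word of the P4ha2 region occurred 6822 times. Short reads from such words cannot be placed at a single locus, and NOD sequence was not used here.

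NOD-enriched regions were a smaller share of members than of the other H3K27ac regions. NOD-enriched regions made up 48.1% of members (46.1 to 50.1) and 53.7% of all other H3K27ac regions (52.7 to 54.7). The share was 61.8% (59.9 to 63.7) for intergenic regions that were annotated to repeats or CpG islands, and 44.7% (43.1 to 46.4) for introns outside repeats. Members thus made up 56.5% of intergenic regions in B6 (54.4 to 58.6) and 42.6% in NOD (40.8 to 44.5). By class, the NOD share of members was 48.9% under 10 kb (44.6 to 53.1), 46.0% at 10 to 100 kb (43.3 to 48.6) and 52.8% over 100 kb (48.5 to 57.0). Other H3K27ac regions under 10 kb stood at 58.2% (56.5 to 59.8), a gap that the intervals do not bridge. At 10 to 100 kb and over 100 kb, the intervals of members and of other regions overlapped. The contrast rested on leaving out repeats and CpG islands. For all intergenic regions the NOD share was 55.1% (53.7 to 56.5), above the 50.8% (49.6 to 52.0) of the regions that then remained.

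**Figure D1:**
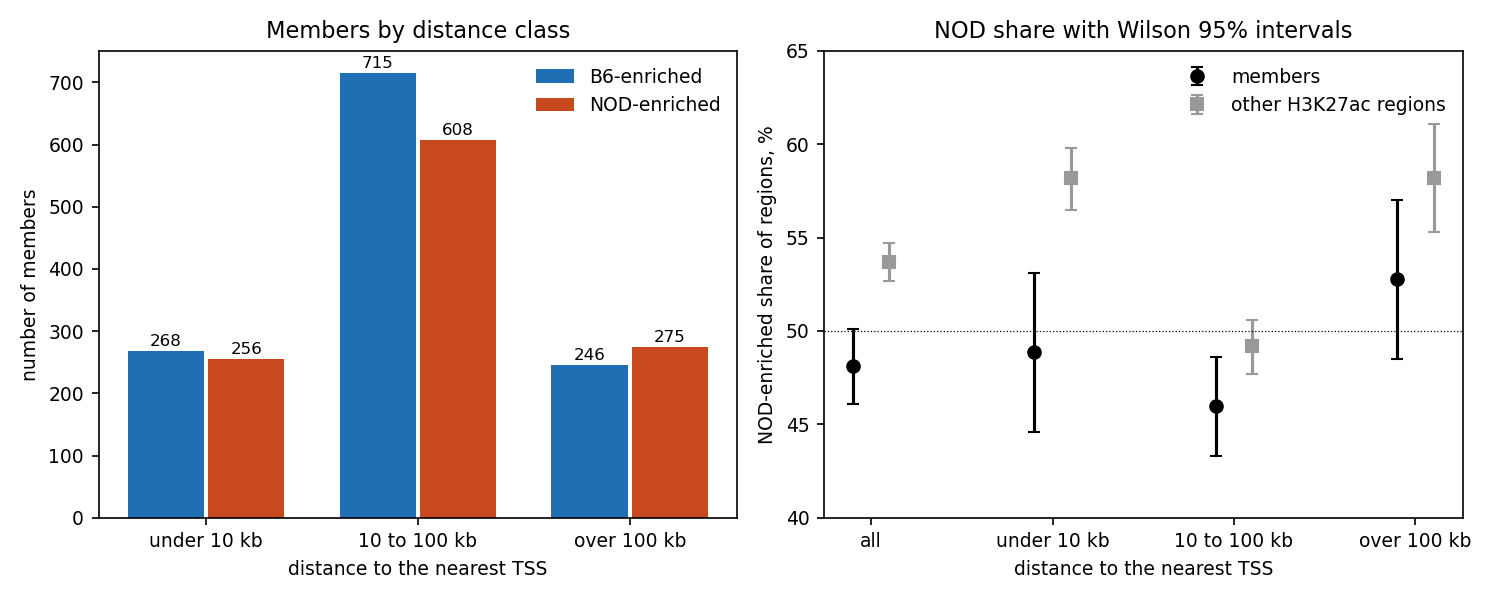
Left, number of B6-enriched and NOD-enriched members in each class of distance to the nearest TSS. Right, NOD-enriched share of members (black circles) and of the other H3K27ac regions (grey squares), in percent on an axis from 40 to 65, with Wilson 95% intervals. Members sat at 48.1% and other regions at 53.7%, and the widest gap was under 10 kb, at 48.9% against 58.2%.

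The median distance to the nearest TSS was 31.0 kb for B6 members and 33.8 kb for NOD members. The other regions of the lists lay nearer, at 18.7 kb and 15.1 kb, as by the rule they include those at promoters and within genes. Intergenic regions in repeats or CpG islands lay at 30.0 kb and 33.5 kb from the nearest TSS. Members lay upstream of that TSS in 64.2% of B6 and 65.1% of NOD cases, and under 10 kb in 83.2% and 88.7%, as gene bodies downstream of a TSS are excluded by the rule. Next to the class limits, the B6 members on either side of 10 kb were at -9985 bp from Plcb4 (score 33.7) and at 10052 bp from 2810001G20Rik (15.2). Those around 100 kb were at -99998 bp from Cops8 (13.6) and at 100144 bp from Scaf8 (11.3). In NOD they were at -9989 bp from Jam3 (5.52), -10109 bp from Impa2 (9.35), 99266 bp from Ipmk (8.90) and 100677 bp from Gm10324 (56.5).

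Most members were narrow and scored low, like most regions of the whole lists. The median score was 13.8 in B6 and 14.0 in NOD, against 12.8 and 12.9 for the whole lists. The median width was 330 bp in B6 and 297 bp in NOD, against 262 bp and 293 bp for the whole lists. Of the B6 members 565 (46.0%) had exactly the width of a single peak, 262 bp, and of the NOD members 501 (44.0%) had the corresponding width of 233 bp. Regions of single-peak width made up 50.6% of the whole B6 list and 47.2% of the whole NOD list. At the other end, 95 B6 members (7.73%) and 116 NOD members (10.2%) were at least 5 kb wide, against 9.03% and 9.21% of the whole lists. Members covered 1.59 Mb in B6 and 1.82 Mb in NOD and held 24.3% and 22.1% of the summed positive score of their lists, or 21.8 and 26.0 per kb.

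The NOD list reached higher scores. NOD-enriched regions made up 46.6% of members with a score of at least 10, 59.1% (54.0 to 64.1) at 50, 65.2% (57.9 to 71.8) at 100 and 74.1% (61.1 to 83.9) at 200, where 14 B6 and 40 NOD members remained. The other H3K27ac regions showed the same course, with 61.7% at 50, 70.5% at 100 and 74.1% at 200. Scores of the 2 lists are compared here as deposited, without a known depth for either H3K27ac library. Among members whose 9 words each occurred once in the genome, the NOD share at a score of at least 100 was 63.0% (52.8 to 72.2).

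**Figure D2:**
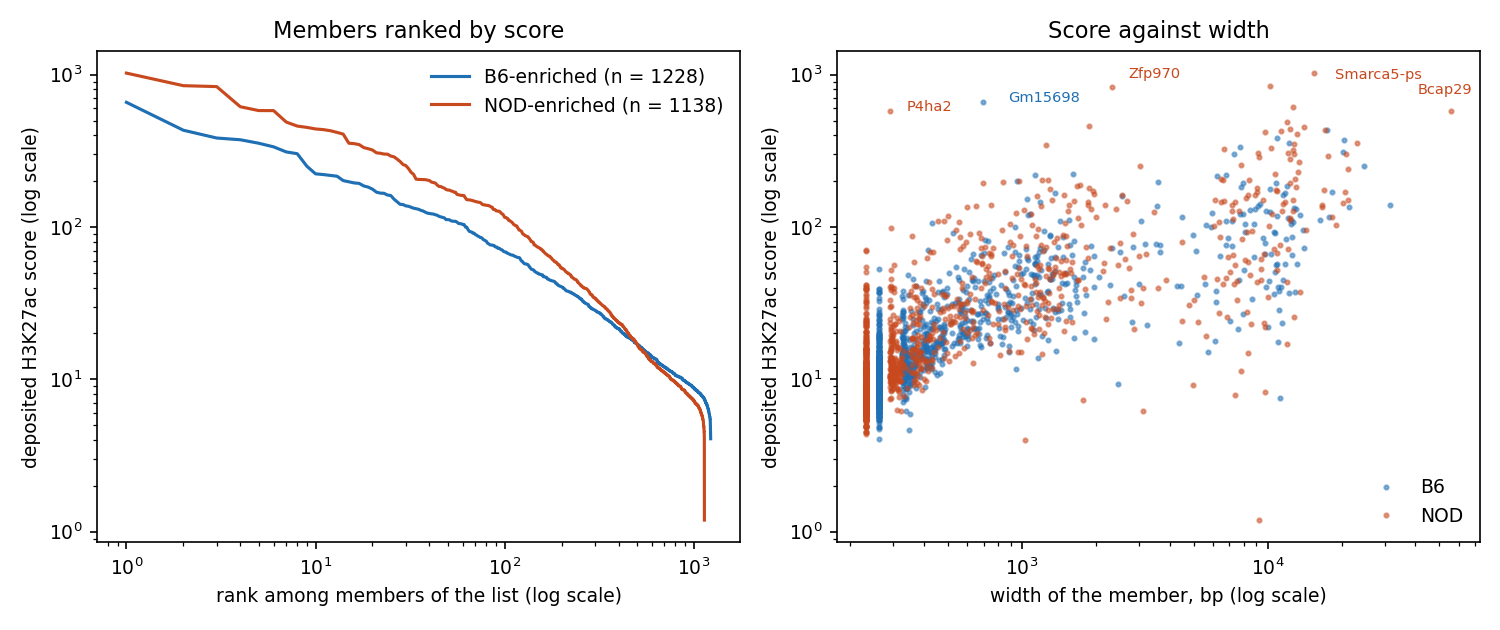
Left, deposited H3K27ac score against rank for members with a score above 0 (1228 in B6, blue, and 1138 in NOD, orange), both axes on a log scale. Right, score against width in bp, both on a log scale, with 5 members named by their nearest gene. One member of each list has a score below 0 and is not drawn. The NOD curve lies above the B6 curve over the top ranks, the columns at 262 and 233 bp are single-peak widths, and P4ha2 (291 bp, score 580.9) stands apart among the narrow members.

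In B6, the member with the highest score, 658.6, was also the region with the highest score of the whole B6 list. It lay at chr11:88967787-88968484, 1218 bp upstream of the pseudogene Gm15698, and was only 697 bp wide. The next lay near Mfap3, which encodes a microfibril-associated protein (431.9, 17457 bp wide), and near the noncoding RNA gene Gm6249 (383.9). Over 100 kb from a TSS, the highest were 1700057H15Rik (373.9), Hsd17b3, an enzyme of testosterone synthesis (354.9), Magi1, a scaffold protein of cell junctions (220.9), and Ajap1 (198.1). At 10 to 100 kb, Mfap3 and Gm6249 were followed by the small heat shock protein gene Hspb3 (335.9) and by Frmd4b (311.1). Under 10 kb, Gm15698 was followed by Sh3rf2 (218.2), the zinc finger gene Zfp870 (182.7) and the pseudogene BC052688 (177.2), where 7 of 9 words were found elsewhere too. The widest B6 member, of 31577 bp and a score of 140.4, lay 64.9 kb upstream of Prdm1, which encodes the repressor Blimp1 of germ cell and plasma cell development. The others were those near Zfp383 (24622 bp, 250.5) and Ptges, a prostaglandin E synthase gene (21385 bp, 134.7). As distance is taken from the centre, the Sh3rf2, BC052688 and Zfp383 members extended over the named TSS.

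In NOD, the highest score was 1024.4, at chr4:145431706-145447145, 24.8 kb upstream of the pseudogene Smarca5-ps. It was second in the whole NOD list. It was followed by G530011O06Rik on the X chromosome (847.0), Zfp970 (835.3, 234 kb away), Ppp1r26 (616.1), Bcap29, a protein of the endoplasmic reticulum (581.4), and P4ha2, a subunit of collagen prolyl hydroxylase (580.9). The Bcap29 member was the widest of all, at 55545 bp, so its score per kb was 10.5. The P4ha2 member was 291 bp wide, with 1996 per kb. Over 100 kb, Zfp970 was followed by Gm14296 (459.9), Sall1, a zinc finger factor of kidney and neural development (320.2, 472 kb away), and Gnat3 (306.7). Under 10 kb, Bcap29 was followed by Meg3, an imprinted noncoding RNA that is expressed from the maternal chromosome (354.9 over 23117 bp), Rnf146, a ubiquitin ligase of the Wnt pathway (326.5), and Mir1932 (300.7). As distance is taken from the centre, the Bcap29, Meg3, Rnf146 and Mir1932 members each extended over the named TSS. The next widest members lay near Meg3 and, also on chromosome 12, 154 kb from Mir3072 (21291 bp, 150.3). In the G530011O06Rik member 8 of 9 words were found elsewhere too, so its position is uncertain.

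Super enhancers were taken as regions with a score above 0 and a deposited slope value of at least 1. The slope value was read as the steepness of the ranked score curve. In some of the highest-scoring regions, such as Gm15698, it holds the region size instead. Super enhancers numbered 99 of 1229 B6 members (8.06%, 6.66 to 9.71) and 116 of 1139 NOD members (10.2%, 8.56 to 12.1). Not all were wide stretches, as 57 in B6 and 66 in NOD were at least 5 kb wide and the P4ha2 one was 291 bp wide. The shares over all H3K27ac regions were 7.06% in B6, inside the interval of the members, and 8.16% in NOD, just below it. A raised NOD share was not particular to members. NOD intergenic regions in repeats or CpG islands stood higher, at 13.9% (12.3 to 15.7). In B6 such regions stood at 9.73%, with an interval that overlapped that of members. By distance, super enhancers were 10.1%, 7.41% and 7.72% of B6 members under 10 kb, at 10 to 100 kb and over 100 kb. In NOD the shares were 7.81%, 10.9% and 10.9%, and the intervals overlapped in both lists. The few super enhancer members carried 39.7% of the positive score of B6 members and 53.8% of that of NOD members. One member of each list, near Gm20362 (4.07) and Zfp518b (1.19), met the definition at the low end of the ranking, where the curve is steep again.

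H3K4me3 came from other libraries and was not used to choose the members. A region enriched for H3K4me3 in the same strain overlapped 61 B6 members (4.96%, 3.88 to 6.32), close to the 4.65% of all B6-enriched H3K27ac regions. In NOD it overlapped 146 members (12.8%, 11.0 to 14.9), above the 9.84% of all NOD-enriched H3K27ac regions. This was not particular to members, as NOD intergenic regions in repeats or CpG islands stood at 12.3% (10.7 to 14.0). Counting only H3K4me3 regions with at least 50 tags, the shares of members were 1.55% in B6 and 7.55% in NOD. Shares of all H3K27ac regions at this limit are not given, so these values say nothing particular to members. An H3K4me3 region enriched in the other strain overlapped 30 B6 members (2.44%, 1.72 to 3.46) and 7 NOD members (0.615%, 0.298 to 1.26), against 1.92% and 0.702% of the lists. The NOD H3K4me3 library was 1.54 times as deep as the B6 library, with 22750449 against 14791364 tags, and its list was longer, with 12077 against 7587 regions. The shares of the 2 strains are therefore not set against each other. Distance made little difference. The same-strain share was 4.85%, 5.31% and 4.07% from the nearest to the farthest class in B6 and 12.5%, 12.2% and 14.5% in NOD, with overlapping intervals.

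The overlap with H3K4me3 was most frequent at high scores. For scores under 10, 3.07% of B6 members (1.72 to 5.42) and 2.90% of NOD members (1.63 to 5.12) overlapped a same-strain H3K4me3 region. For scores of 100 or more the shares were 41.9% (30.5 to 54.3; 26 of 62) in B6 and 51.7% (42.7 to 60.6; 60 of 116) in NOD. Other H3K27ac regions of the same scores stood at 26.2% (19.8 to 33.8) and 39.0% (34.1 to 44.2). These high-scoring members were also wider, with a median of 8295 bp in B6 and 7325 bp in NOD against 262 and 233 bp for scores under 10, which gives more room for an overlap. Among members of single-peak width, the shares were 2.48% in B6 and 5.39% in NOD. All H3K27ac regions of that width stood at 2.15% and 3.94%, with overlapping intervals. Of the members over a same-strain H3K4me3 region, 14.8% in B6 (7.96 to 25.7) and 12.3% in NOD (7.94 to 18.6) had at least 5 of 9 words found elsewhere, against 1.46% and 4.57% of all members. Some wide members also extended over an annotated TSS, such as those near Bcap29 and Meg3 in NOD. The part of width, of such a TSS and of repeated sequence in the result was not tested. Among super enhancer members, 27.3% in B6 (19.5 to 36.8) and 50.9% in NOD (41.9 to 59.8) overlapped a same-strain H3K4me3 region, against 21.3% and 40.8% of all super enhancers.

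**Figure D3:**
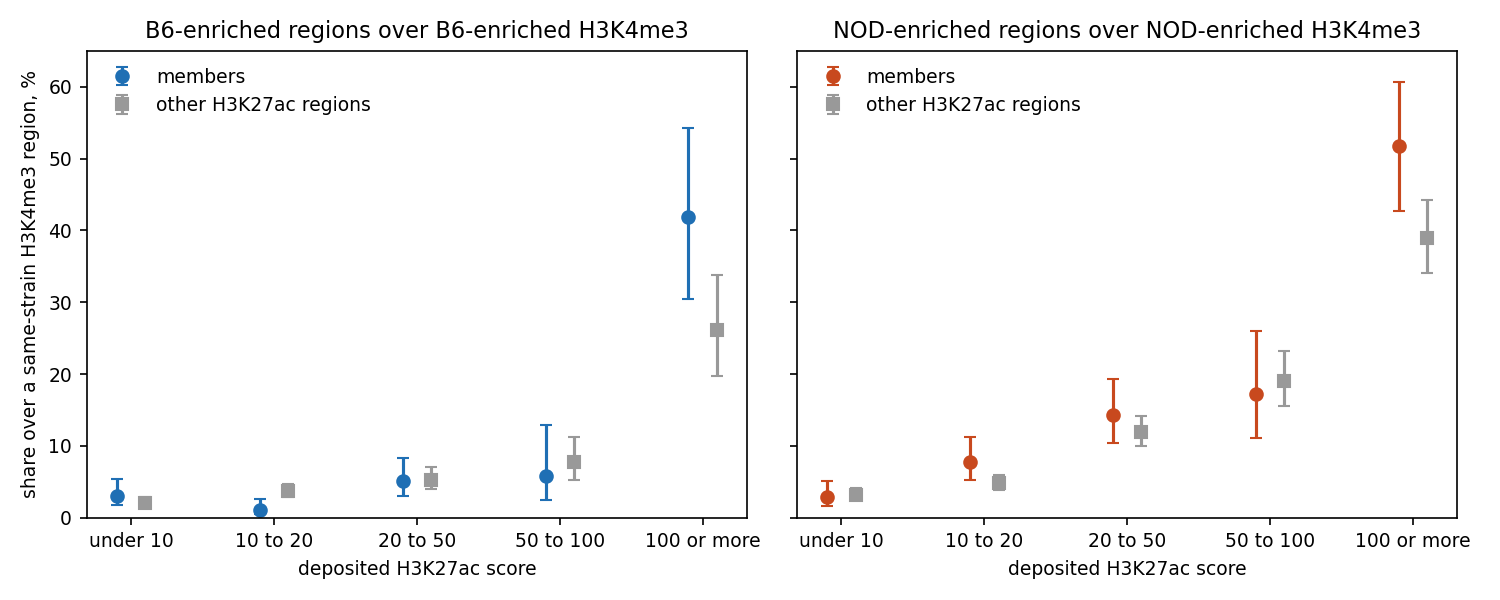
Share of B6-enriched (left) and NOD-enriched (right) H3K27ac regions over a same-strain H3K4me3 region, in percent, by deposited H3K27ac score, for members (coloured circles) and other regions (grey squares) with Wilson 95% intervals. The share reached 41.9% in B6 and 51.7% in NOD for members with a score of 100 or more.

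The members with the most same-strain H3K4me3 tags were the following. In NOD, 4 regions over the Smarca5-ps member held 3284 NOD tags and 116 B6 tags, 1 region over a member near Stac2 (score 174.7) held 1561 NOD and 117 B6 tags, and 1 over the Ppp1r26 member held 781 and 19. In B6, the region over the Gm15698 member held 351 B6 tags and 78 NOD tags, that over a member near 1700030C10Rik (56.8) 288 and 10, and that over a member near Gm4425 (7.80) 225 and 12. In the 1700030C10Rik and Gm4425 members 7 and 6 of 9 words were found elsewhere too, so their tags may belong to other copies. The H3K4me3 regions were called at a minimum of 4-fold, so a high ratio of tags was set by the calling. Scaled to library size, Gm15698 had 6.92-fold more B6 tags (exact 95% interval 5.40 to 8.96) and Smarca5-ps 18.4-fold more NOD tags (15.3 to 22.3). The Zfp970 member had 34 NOD tags and none from B6. Taking 3 tags as the floor of the B6 library over that region, it had 7.37-fold more NOD tags. The exact 95% interval had a lower limit of 5.67 and no upper limit. The narrow P4ha2 member overlapped no H3K4me3 region of either list.

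Members were spread over the genome unevenly. Chromosome 6 held 113 B6 and 43 NOD members, a NOD share of 27.6% (21.2 to 35.1), chromosome 11 held 88 and 48 (35.3%, 27.8 to 43.6), and the X chromosome held 14 and 42 (75.0%, 62.3 to 84.5). On chromosome 8 the share was 56.8% (49.1 to 64.2), and on the remaining 16 autosomes it ran from 43.7% on chromosomes 13 and 16 to 53.8% on chromosome 1. The other H3K27ac regions were tilted the same way, with 37.0% on chromosome 6, 46.4% on chromosome 11, 65.7% on chromosome 8 and 68.0% on the X chromosome. For chromosome 6 this came to 0.755 B6 members per Mb against a median of 0.464 over those 16 autosomes, and to 0.287 NOD members per Mb against 0.448. A gain or loss of a chromosome in a culture and a difference between the strains cannot be told apart with 1 library each.

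**Figure D4:**
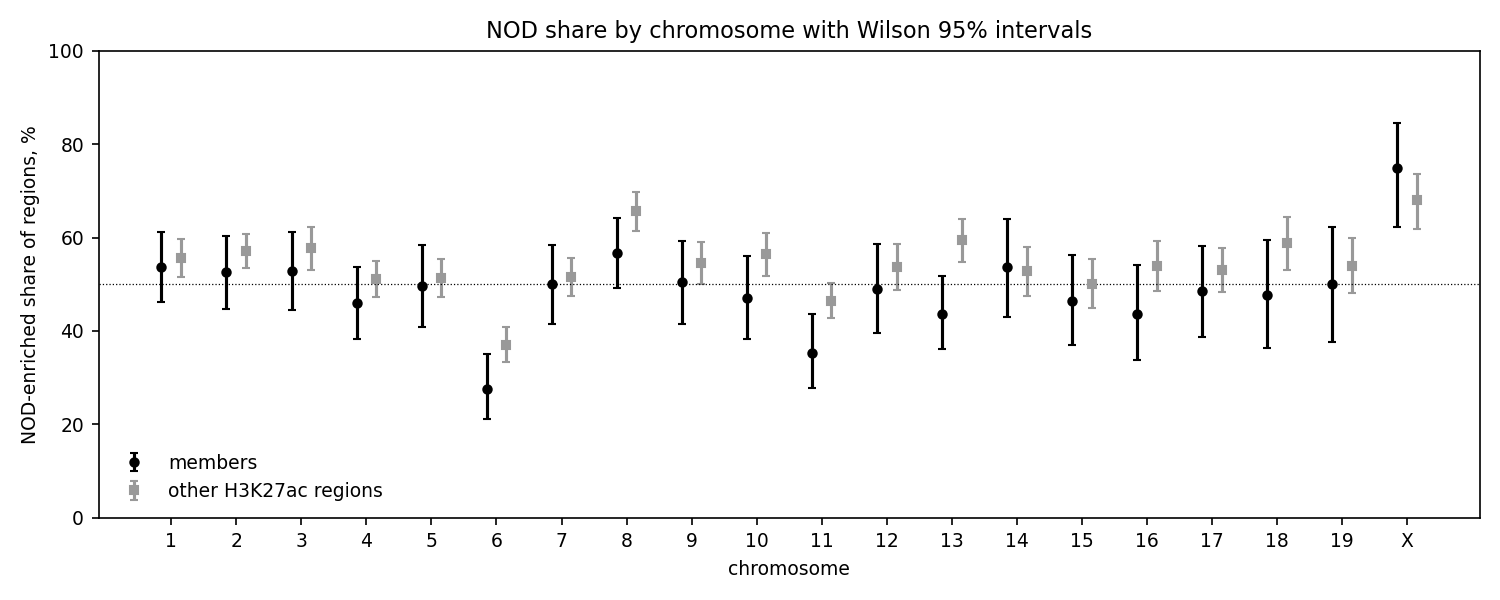
NOD-enriched share of members (black circles) and of the other H3K27ac regions (grey squares) on each autosome and the X chromosome, in percent, with Wilson 95% intervals. Members on chromosomes 6 (27.6%) and 11 (35.3%) lay below the 50% line and those on the X chromosome (75.0%) above it. The Y chromosome, with 2 members in each list, is not drawn.

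Sequence found elsewhere in the genome went with some of the densest groups of members. In B6 18 members (1.46%, 0.928 to 2.30) and in NOD 52 (4.57%, 3.50 to 5.94) had at least 5 of 9 words that were found more than once. Among the other H3K27ac regions the shares were higher, at 3.38% (2.88 to 3.96) in B6 and 6.28% (5.64 to 6.98) in NOD. The NOD intervals overlapped. Such sequence was thus not particular to members. In NOD the share was 10.5% (7.44 to 14.7) over 100 kb from a TSS and 1.95% (0.837 to 4.49) under 10 kb. The bins of 1 Mb with the most NOD members were at 66 to 67 Mb and 65 to 66 Mb of chromosome 13, with 8 members each, of which 7 and 6 were of this kind. They lay near Gm10324, Zfp369 and 2410141K09Rik, in a cluster of zinc finger genes that are close copies of each other. All 6 NOD members at 177 to 178 Mb of chromosome 2, near Gm14296, Gm14403 and Zfp970, were of this kind too, and 4 of them overlapped a NOD-enriched H3K4me3 region. Reads at such places may come from other copies, and these members are uncertain. In B6 no bin held more than 6 members. Of the 10 fullest bins, that at 61 to 62 Mb of chromosome 13, near BC052688 and Zfp808, held 2 such members among 4, and the other 9 held none.

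Some genes had several members around them. In B6, 1092 genes were nearest to at least 1 member and 114 to at least 2, and in NOD 1024 and 87. Magi1 had 6 members in B6 and none in NOD. Their scores were 220.9, 128.7, 109.0, 52.6, 10.6 and 9.38, and all 6 lay within 748 kb of chromosome 6, with unique words. Tenm3, which encodes a teneurin of neuronal wiring, had 5 B6 members over 124 kb with scores from 8.37 to 45.5, of which none was a super enhancer, and 1 NOD member (6.65). BC052688, Prdm1 and the Wnt receptor gene Fzd7 had 3 B6 members each, with highest scores of 177.2, 140.4 and 111.8. In the 2 higher-scoring BC052688 members (177.2 and 162.1) 7 of 9 words were found elsewhere too, so they are uncertain.

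In NOD, Pcmtd1, which encodes a protein related to isoaspartyl methyltransferases and was on the list of immune and diabetes genes, had 7 members over 490 kb of chromosome 1. Their scores were 161.2, 160.6, 145.0, 101.4, 80.2, 25.7 and 6.87, and 4 were super enhancers. A single B6 member near Pcmtd1 scored 9.84 and lay 498 kb from the TSS. Sall1 had 5 NOD members over 449 kb, of which 1 scored 320.2 and the other 4 between 6.19 and 15.9, and 1 B6 member of 10.5. The high-scoring Sall1 member overlapped 2 H3K4me3 regions with 748 NOD and 25 B6 tags. Gm10324 had 6 NOD members (highest 60.2), Zfp369 had 5 (45.3) and 5730507C01Rik on chromosome 12 had 4 (66.2).

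Genes with members in both lists numbered 152, or 13.9% of the B6 and 14.8% of the NOD genes. Those with the most were Pcmtd1 (1 in B6 and 7 in NOD), Gm10324 (1 and 6), Sall1 (1 and 5), Tenm3 (5 and 1) and 2410141K09Rik (2 and 3). The share of all genes with regions in both lists was not computed. In position, few overlaps were set by the calling, as each list holds regions called in 1 strain against the other. Any region of the other list overlapped 7 B6 members (0.570%) and 8 NOD members (0.702%). Only 6 members of each list, of 1229 and 1139, overlapped a member of the other (0.488% and 0.527%). Among them were regions near Opa1, with a B6 score of 66.4 over 10332 bp and a NOD score of 8.22 over 233 bp inside it, and near Ofcc1, with 17.3 in B6 and 34.5 in NOD. Within 100 kb, 211 B6 members (17.2%, 15.2 to 19.4) had a NOD member and 349 (28.4%, 25.9 to 31.0) had another B6 member. For NOD members the shares were 17.6% (15.5 to 19.9) with a B6 member and 21.5% (19.2 to 24.0) with another NOD member. Within 10 kb no member had another of its own list, while 44 B6 and 43 NOD members had one of the other list. The same-list and other-list shares are therefore not like for like.

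Pluripotency genes had few members. Of the core factors Pou5f1, Sox2 and Nanog, only Nanog was the nearest gene of a member, in NOD, with a score of 18.5 at 37.2 kb upstream. The 20 genes of naive pluripotency had 8 members in B6 near 7 genes (0.651% of members, against 0.290% of all B6-enriched regions) and 10 in NOD near 8 genes (0.878% against 0.212%). The highest in NOD lay 18.9 kb upstream of Zfp42, the gene of the naive marker Rex1, with a score of 417.8 over 9761 bp. A second Zfp42 member scored 7.10. No B6 member lay near Zfp42. The highest B6 member on the list lay near Dppa3, a gene active in naive ES cells and germ cells, with a score of 39.0. This B6 member (chr6:122663033-122663295) lay within an enhancer fragment that RefSeq lists from reporter gene assays. The NOD member named for Nanog lay close by, at chr6:122670037-122670460. Dppa3 is only the gene with the nearest TSS, and which gene the B6 member acts on was not tested. NOD too had a member near Dppa3 (44.8 over 9407 bp, 4.22 kb upstream). Klf4, Klf5, Prdm14 and Tfcp2l1 had members of both lists, and their scores ran from 7.88 near Tfcp2l1 in NOD to 22.4 near Klf5 in B6.

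Genes of differentiation and of the 2-cell-like state had at most 3 members per group of genes and list. Otx2, a factor of the formative state, had 2 B6 members (38.7 and 6.34), the only ones of the formative genes in B6 (0.163%, against 0.0543% of all B6-enriched regions). In NOD, the Wnt effector gene Lef1 had the only one of that group (0.0878% against 0.0490%), a super enhancer (126.9, 25.4 kb upstream) over an H3K4me3 region with 76 NOD and 7 B6 tags. Eomes (16.2) and Gata6 (17.0) had 1 member each, in B6 (0.0814% against 0.0181%) and in NOD (0.0878% against 0.0326%), and of the neural genes Sox1 (25.1) had a NOD member. Of the trophectoderm genes, Gata3 (28.8) and Tfap2c (10.5 and 9.84) had B6 members (0.244% against 0.0905%), and none had a NOD member, while 4 other NOD-enriched regions were near such genes. Zscan4d, a gene of the 2-cell-like state, had 1 NOD member (18.9, or 0.0878% against 0.0653%), 5 of whose 9 words were found elsewhere.

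Genes of the signalling pathways that act on ES cells had 5 members in B6 and 7 in NOD, none of them a super enhancer. These were 0.407% of B6 and 0.615% of NOD members, against 0.217% and 0.163% of all regions of the lists. The B6 members lay near Spry2 (14.7 and 8.48) and Spry4 (12.6), feedback inhibitors of receptor tyrosine kinases, and near the BMP targets Id2 (14.5) and Id1 (10.9). The NOD members lay near the Wnt targets Sp5 (20.2) and Axin2 (10.9), near Id1 (12.1), Il6st (7.77) and Lifr (4.84), which encode the subunits of the LIF receptor, and near Fgfr1 (5.41) and Dusp6 (4.01). Lif itself, whose cytokine keeps mouse ES cells undifferentiated, was on no list. Chosen after its values were seen, a NOD member of single-peak width scored 70.2 at 36.1 kb from its TSS.

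Immune and diabetes genes had 4 members in B6 (0.325%, against 0.109% of all B6-enriched regions) and 13 in NOD (1.14% against 0.441%), of which 7 lay near Pcmtd1. The list included Pcmtd1, Igfbp2 and Aim2, which the study named for H3K27ac differences between these strains. These counts are therefore not independent of the data. The B6 super enhancer member was at Aim2, the gene of a sensor of cytosolic DNA, 1.73 kb upstream of its TSS, with a score of 71.4. The T cell costimulator gene Cd28 had a B6 member (16.9) and a NOD member (39.5), which lay 32.4 and 71.0 kb from its TSS. The NOD members also lay near Igfbp2 (69.6, 11.9 and 6.19), Tlr2, a receptor for bacterial lipoproteins (17.0), and Icos (11.1), and a B6 member lay near Il2 (8.14). Tlr4, the receptor for bacterial lipopolysaccharide, was not on the list. It was nearest to a NOD member with a score of 450.8, 74.3 kb away, which held 68 NOD and no B6 tags of H3K4me3 in 2 regions. Genes whose symbols begin with Zfp had 26 members in each list (2.12% and 2.28%, against 1.90% and 2.53% of all regions), with the highest scores near Zfp383 (250.5) in B6 and Zfp970 (835.3) in NOD.

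Few members lay on elements that RefSeq lists as enhancers or other regulatory elements, most of which were tested in transgenic embryos. There were 11 in B6 (0.895%, 0.501 to 1.60) and 7 in NOD (0.615%, 0.298 to 1.26), against 15 (0.349%, 0.212 to 0.575) and 12 (0.241%, 0.138 to 0.420) of the other H3K27ac regions. In B6 the highest score among them was that near Nuak2 (103.9), followed by that near Dppa3 (39.0), on a fragment used in reporter gene assays. In NOD the highest score was that near Tlr4 (450.8), followed by Mir125b-1 (39.4), Gse1 (37.7) and Gm6639 (29.8). A NOD member near Sall1 (11.9) was on such an element too, while the one with the score of 320.2 was not.

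The central 300 bases of every H3K27ac region were searched on both strands for 11 short motifs of factors that are active in ES cells or at enhancers. They were an octamer (ATTTGCAT, bound by Oct4 and related factors), Sox (CCATTGTT), Esrrb (TCAAGGTCA), Klf (GGGTGTGG), Stat (TTCCNGGAA), Tcf (CATCAAAG), Tead (CATTCCA), AP-1 (TGANTCA), E-box (CACGTG), Ets (CCGGAAG) and CTCF (AGGGGGCGC). Matches of different motifs could overlap. The octamer stood in 48 B6 member windows (3.91%, 2.96 to 5.14) against 2.03% (1.64 to 2.49) of the other B6-enriched regions, and its share ran from 2.61% under 10 kb to 5.69% over 100 kb. In NOD it stood in 25 member windows (2.19%, 1.49 to 3.22) against 2.39% (2.00 to 2.85). For the other 10 motifs the intervals of members and of other regions overlapped in both lists. AP-1 was the most frequent, at 11.8% of B6 and 9.75% of NOD member windows. Of 22 comparisons, 1 thus had intervals apart. None of the 6 windows printed above held any of the motifs.

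**Figure D5:**
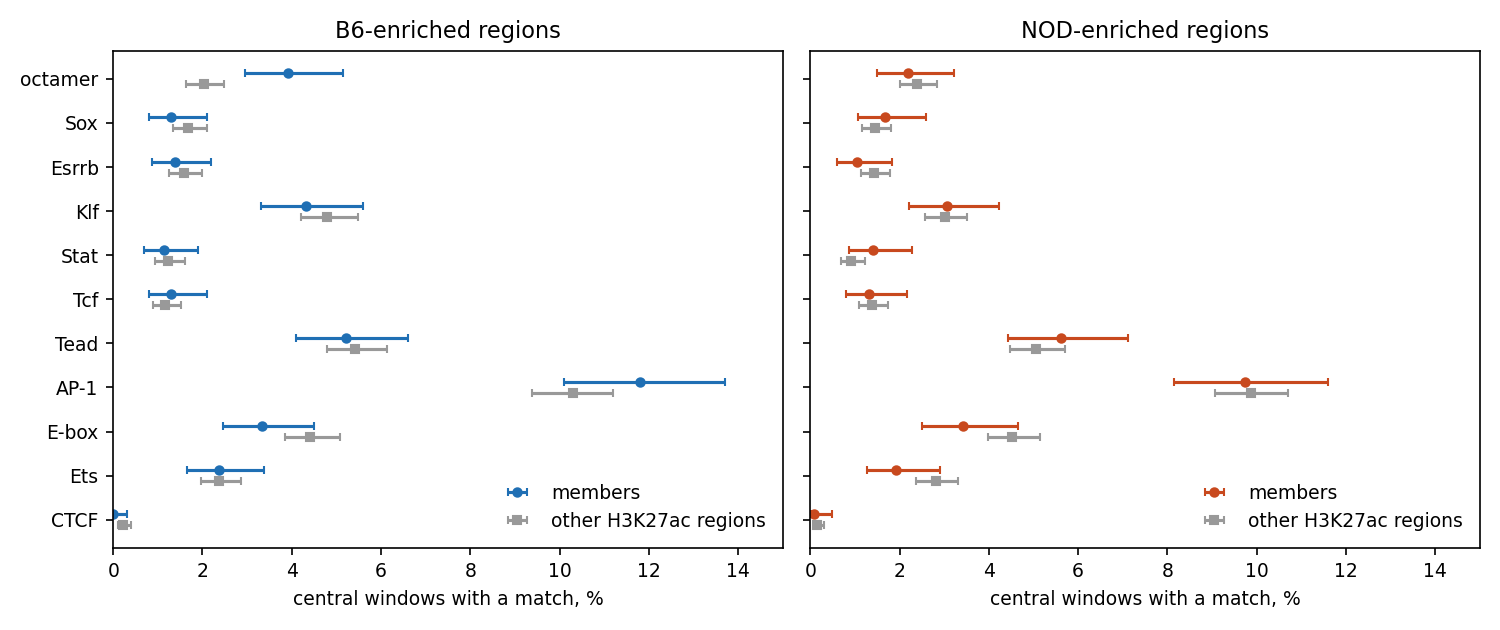
Share of central windows with at least 1 match to each of 11 motifs, in percent, for B6-enriched (left) and NOD-enriched (right) members (coloured circles) and other H3K27ac regions (grey squares), with Wilson 95% intervals. The octamer in B6 members, at 3.91% against 2.03%, is the pair whose intervals lie apart.

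As examples, the windows of the members with the highest scores among those with an octamer are shown, chosen after their values were seen, with the octamer in capitals. They lay near Apold1 in B6 (chr6:134960709-134961008, score 152.3) and near 2310020H05Rik in NOD (chr13:99118808-99119107, score 205.3), on the plus strand of GRCm38.p6.
Apold1, B6: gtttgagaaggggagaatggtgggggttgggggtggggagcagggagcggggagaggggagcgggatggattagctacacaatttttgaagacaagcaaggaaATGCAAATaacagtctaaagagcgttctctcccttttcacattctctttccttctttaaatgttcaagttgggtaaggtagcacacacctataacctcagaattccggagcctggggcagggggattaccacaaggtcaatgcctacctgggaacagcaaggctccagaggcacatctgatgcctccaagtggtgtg
2310020H05Rik, NOD: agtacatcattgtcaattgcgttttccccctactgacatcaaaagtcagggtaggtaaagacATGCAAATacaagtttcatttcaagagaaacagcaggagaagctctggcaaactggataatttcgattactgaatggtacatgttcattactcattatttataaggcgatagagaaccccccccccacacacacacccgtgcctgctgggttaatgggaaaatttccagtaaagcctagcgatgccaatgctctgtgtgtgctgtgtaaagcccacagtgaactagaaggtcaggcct

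In both windows the octamer was read on the minus strand, starting at position 104 and at position 63 from the left end. All 9 words of both members were unique in the genome. The Apold1 member was a super enhancer of 1055 bp, 21.1 kb upstream of the TSS.

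In base composition, members differed little from other regions. The median GC content was 47.5% in B6 and 45.6% in NOD, against 47.0% and 45.7%, and it was lower with distance, from 48.7% to 44.9% in B6 and from 47.0% to 43.5% in NOD. The median ratio of observed to expected CpG was 0.192 in B6 and 0.195 in NOD members, against 0.207 and 0.226 in other regions. Such low values are usual outside CpG islands, which the rule left out.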

How the data were processed

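Libraries of H3K27ac and H3K4me3 ChIP-Seq, 1 per strain and mark, were analysed from the region lists of the authors. According to the study's methods, reads were mapped with bowtie2 and regions were called with HOMER. The submitters' processing notes name mm9, whereas the methods and the file headers name mm10. In mm10 the deposited distance was within 100 bp of that computed from the named RefSeq transcript for 96.9% of B6 and 96.0% of NOD members whose transcript was found, so positions are mm10.

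The deposited H3K27ac score and slope value were used as scores made by the authors with the HOMER super enhancer pipeline. The deposited H3K4me3 lists of the authors give a count of tags in B6 and a scaled signal in NOD, from which whole tags were recovered with the library totals. Their columns of fold and p-value, which hold comparisons by the authors, were not used.

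Overlap meant at least 1 bp. Functions were tested on simulated data. Python 3.11.15, numpy 2.4.6, pandas 2.3.3, scipy 1.17.1 and matplotlib were used. Named members were the 4 with the highest score per list and class, the widest, those with the most H3K4me3 tags, the highest per strain near the genes of each list, and genes with the most members in 1 list or in both. All other members named were chosen after their values were seen. Members and lists were chosen with earlier results of these data known. A few sequences and 1 gene are not reported here.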

Additional observations from a re-analysis of the deposited data

How the results depend on the processing

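With 1 library per strain and mark, no value here carries a biological error. No paired analysis was possible because each strain and mark had 1 library and no test was run. With repeats included, there were 2175 B6 and 2672 NOD regions, so NOD became the larger list, and the NOD share was 55.1%, past 50% and above the 50.8% of the remaining regions. By class it was 56.1%, 52.5% and 60.1% from the nearest to the farthest, so the classes under 10 kb and at 10 to 100 kb crossed 50% too, and NOD super enhancers were 12.3%. At a score of at least 10, super enhancers were 11.3% in B6 and 15.1% in NOD, and H3K4me3 overlap in NOD was 17.8%. A slope value of at least 0.5 gave 11.9% and 15.5% super enhancers, and of at least 2 gave 5.70% and 6.32%. H3K4me3 within 1 kb was found for 6.67% and 17.1%, with at least 50 tags for 1.55% and 7.55%, and over at least 50% of the shorter region for 10.4% in NOD. Of members whose words were all unique, a choice made after seeing the data, 45.3% were NOD, 5.97% and 6.98% were super enhancers, and 3.72% and 10.3% overlapped H3K4me3. Shares outside RefSeq genes, under 50% soft-masked, with RefSeq distances or without chromosomes 6, 8, X and Y moved less than their intervals. So did those with super enhancers limited to scores of at least 50 (chosen after seeing the data). Counts of members have no interval. They fell from 1229 in B6 and 1139 in NOD to 932 and 874 outside RefSeq genes. Without chromosomes 6, 8, X and Y they were 1030 and 960, and at a score of at least 10 they were 871 and 760. All 22 motif shares moved when whole members were searched. The H3K27ac depth is unknown, which limits any comparison of scores between the lists.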
